A study of Homo sapiens with 40 samples.

Results

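The genes described here are 35 genes of the actin cytoskeleton, most of them known or likely targets of serum response factor (SRF), with SRF itself among them. They were found by their symbols in the annotation of the array, which gave 32 probe sets (groups of array probes read as 1 signal) of 31 genes among 20172 gene symbols and 33297 probe sets in all. Each of the 32 lists 1 symbol alone, and TPM4 has 2 probe sets. FLNA, FLNC, FHL1 and TPM3 had no annotated probe set by symbol, gene number or accession and were not analysed here.

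RNA was measured in MDA-MB-231, a human cell line from a triple-negative breast cancer, on 40 Affymetrix Human Gene 1.0 ST arrays in 10 groups of 4. Lot I held cells given the solvent alone (control), 30 µM zoledronate or 2 µM fluvastatin, each for 12 h and for 24 h. Lot II held control cells at 48 h and at 24 h, cells given 30 µM zoledronate for 48 h and cells given 100 µM zoledronate for 24 h. All groups were grown subconfluent in the same serum-containing medium, and the design text gives the 2 µM and 30 µM doses as IC50 values of a longer treatment. The labels call the 4 replicates of a group independent and pair treated with control cells by day, but do not say from which cultures they came, so p-values measure the spread between these samples. All results come from 1 cell line.

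Actin monomers join into filaments, which crosslinkers, tropomyosins and myosin II assemble into contractile stress fibres anchored at adhesion plaques. SRF binds a DNA element called the CArG box in the promoters of many of these genes, and its cofactors MRTFA and MRTFB enter the nucleus when free actin monomers are used up. Fluvastatin, a statin, inhibits HMG-CoA reductase at the start of the mevalonate pathway, and zoledronate, a nitrogen-containing bisphosphonate, inhibits farnesyl diphosphate synthase further down.

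Promoter windows of 300 bases, from 250 before to 50 after a transcription start, were taken from RefSeq (GRCh38.p14) and searched on both strands for the CArG box. Only its strict form of 10 bases was searched, CC and GG with A or T alone between them, so variants of it were not counted. ACTB, TAGLN and MYL9 had no entry. The box occurred in at least 1 window of 9 of the 32 member genes with an entry, or 28.1%, against 438 of 27305 genes, or 1.6%. Because the list was put together from known SRF targets, this share is a description. The 5 windows below are shown because their genes changed with 100 µM zoledronate and hold the box, which stands in capitals. They lie at chr19:1026358-1026657 on the plus strand (CNN2), chr2:105438480-105438779 on the minus strand (FHL2), chr6:43171019-43171318 on the plus strand (SRF), chr14:68977517-68977816 on the minus strand (ACTN1) and chr19:16067288-16067587 on the plus strand (TPM4).
CNN2: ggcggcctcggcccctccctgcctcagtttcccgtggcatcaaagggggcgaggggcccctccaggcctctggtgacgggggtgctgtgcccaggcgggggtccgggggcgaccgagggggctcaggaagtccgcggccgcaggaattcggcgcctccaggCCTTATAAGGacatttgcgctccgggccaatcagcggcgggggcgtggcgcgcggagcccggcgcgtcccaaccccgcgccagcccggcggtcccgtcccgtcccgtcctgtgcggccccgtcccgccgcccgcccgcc
FHL2: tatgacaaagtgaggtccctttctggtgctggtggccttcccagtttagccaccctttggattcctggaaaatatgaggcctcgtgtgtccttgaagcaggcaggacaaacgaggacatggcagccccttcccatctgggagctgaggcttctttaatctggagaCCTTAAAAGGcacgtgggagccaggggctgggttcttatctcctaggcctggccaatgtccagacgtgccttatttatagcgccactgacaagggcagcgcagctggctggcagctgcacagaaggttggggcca
SRF: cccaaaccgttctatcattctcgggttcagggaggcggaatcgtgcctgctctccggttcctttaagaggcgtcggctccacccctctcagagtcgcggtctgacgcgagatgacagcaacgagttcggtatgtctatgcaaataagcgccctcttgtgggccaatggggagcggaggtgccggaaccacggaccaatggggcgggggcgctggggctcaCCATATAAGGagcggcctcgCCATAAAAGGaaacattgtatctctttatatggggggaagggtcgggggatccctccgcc
ACTN1: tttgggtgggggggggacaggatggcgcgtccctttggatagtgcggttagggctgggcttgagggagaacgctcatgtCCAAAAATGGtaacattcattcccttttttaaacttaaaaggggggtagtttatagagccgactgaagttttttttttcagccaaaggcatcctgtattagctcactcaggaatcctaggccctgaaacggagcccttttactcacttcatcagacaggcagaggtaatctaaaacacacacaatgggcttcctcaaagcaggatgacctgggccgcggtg
TPM4: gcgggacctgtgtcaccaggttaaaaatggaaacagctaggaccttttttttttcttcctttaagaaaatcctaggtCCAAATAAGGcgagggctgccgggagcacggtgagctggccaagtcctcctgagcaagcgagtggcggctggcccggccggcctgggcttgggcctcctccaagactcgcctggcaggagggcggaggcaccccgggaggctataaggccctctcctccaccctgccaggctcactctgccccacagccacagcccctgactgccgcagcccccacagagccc
Counted from the start site, the box begins 89 bases upstream in CNN2 and 85 in FHL2. SRF holds 2 of them, 30 and 10 bases upstream, in a promoter that SRF is known to bind itself. In ACTN1 it begins 171 and in TPM4 173 bases upstream. ACTG1, which also fell, and ACTG2 held the box in a window as well, as did FLNA and FHL1. Of the 15 genes with a window that changed at 100 µM, 6 had a box (5 of them fell and TPM4 rose), against 1 of 13 measured genes that did not pass the test. A gene counted if any of its windows held the box, and the number of windows differed between genes, so these counts are a description. ACTN1, TPM4, FHL2 and SRF also had windows without it. NEXN, CALD1 and LIMA1, which fell the most, had no box of this form in their windows, which says nothing of variants or of sites elsewhere.

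Throughout, a level is the log2 value deposited by the authors, and a difference is the treated array minus the control array of the same lot, time and replicate number, averaged over 4 pairs and given with its standard error. The words rose and fell are used only of genes that passed limma's test, with a p-value adjusted over all 33297 probe sets by Benjamini-Hochberg that was under 0.05. With 100 µM zoledronate, 17 of the 32 probe sets passed, 14 lower and 3 higher, or 53.1%. Over all probe sets 22.7% passed, 12.6% lower and 10% higher, and by the same p-values 29.4% of the probe sets with exactly 1 symbol passed. With fluvastatin at 24 h, 10 passed (8 lower, 2 higher), or 31.2%, against 5.3% of all (1.82% lower, 3.48% higher) and 7.54% of those with 1 symbol. With 30 µM zoledronate at 48 h, 2 passed, both lower, or 6.25%, against 3.69% of all (2.2% lower) and 5.3% of those with 1 symbol. With fluvastatin at 12 h 2 passed, both lower, against 0.222% of all (0.153% lower) and 0.339% of those with 1 symbol. With 30 µM zoledronate at 12 h and at 24 h, limma called 0 of the 32 and 0% of all probe sets. At an unadjusted p under 0.05 it called 0 and 1 of the 32, and 1135 and 1782 of all 33297. The count at 100 µM stayed between 15 and 16 with each replicate number left out, where 15.9% to 18.9% of all probe sets passed. That for fluvastatin at 24 h fell to between 0 and 6, as given with its genes.

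**Figure D1:**
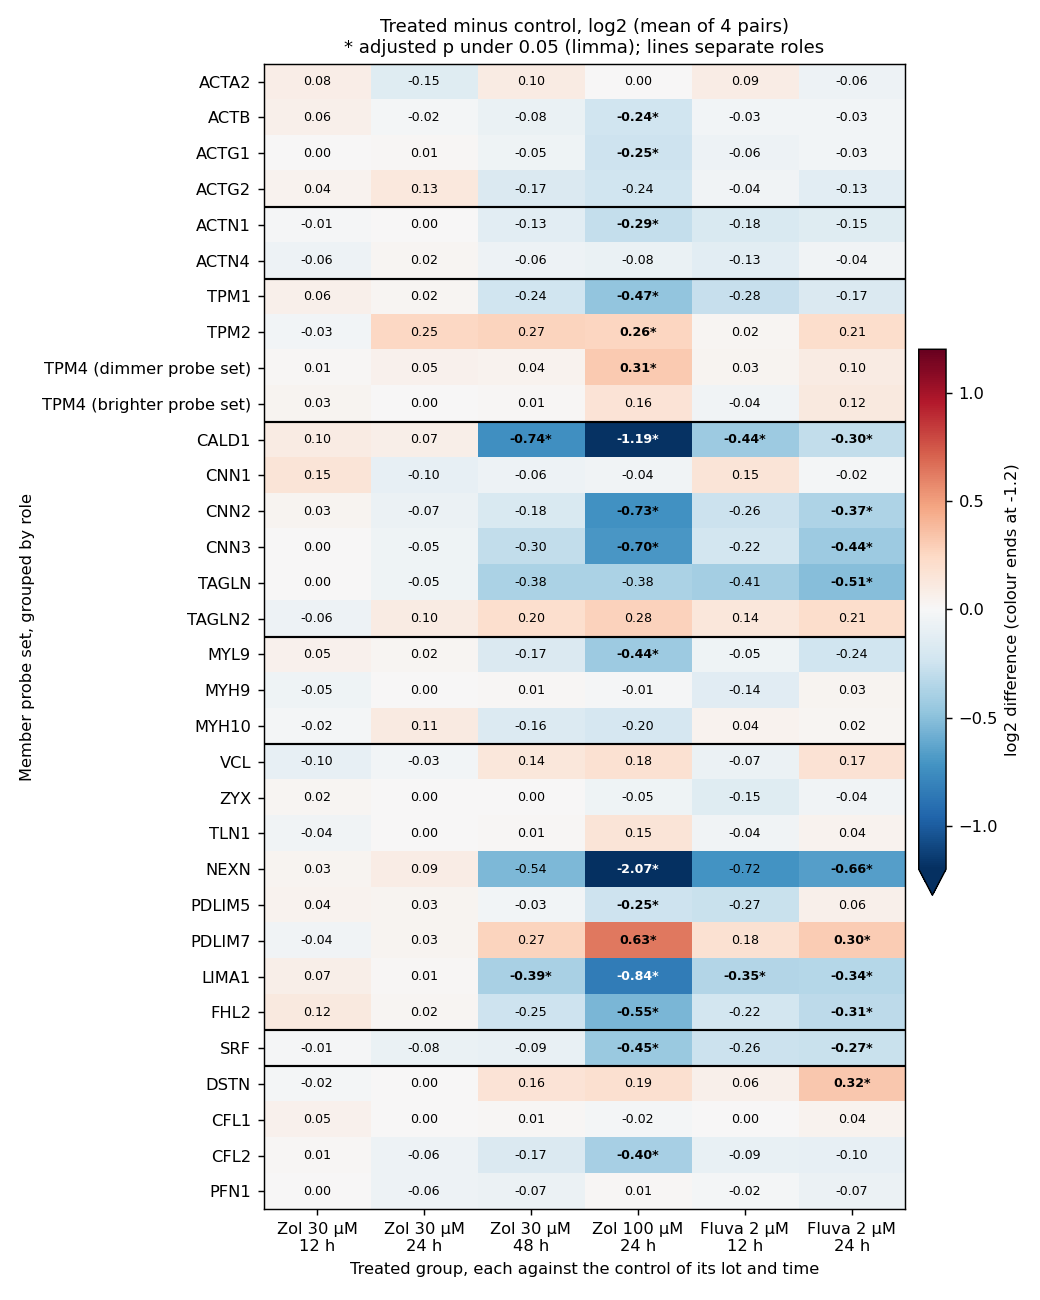
Mean difference of treated and control arrays (log2, 4 pairs) for each of the 32 probe sets in the 6 treated groups, ordered by role, printed in each cell and shown in blue (lower) or red (higher), with an asterisk where the adjusted p is under 0.05. The column of 100 µM zoledronate holds 17 asterisks and that of fluvastatin at 24 h 10, while the columns of 30 µM zoledronate at 12 h and 24 h hold none.

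The median difference over the 32 probe sets was −0.22 at 100 µM, against 0.00 over all probe sets, and lay between −0.22 and −0.13 in the 4 pairs. It was −0.04 with fluvastatin at 24 h and −0.07 at 12 h, −0.06 with 30 µM zoledronate at 48 h, and 0.01 and 0.00 at 12 h and 24 h. All 4 treated arrays lay below all 4 control arrays in 15 of the 32 at 100 µM and above them in 7, where 14.5% and 11.5% of all probe sets did so. With fluvastatin at 24 h this held for 4 below and 1 above, against 3.13% and 3.55% of all. A bulk array cannot tell apart fewer cells with a transcript and less of it per cell.

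**Figure D2:**
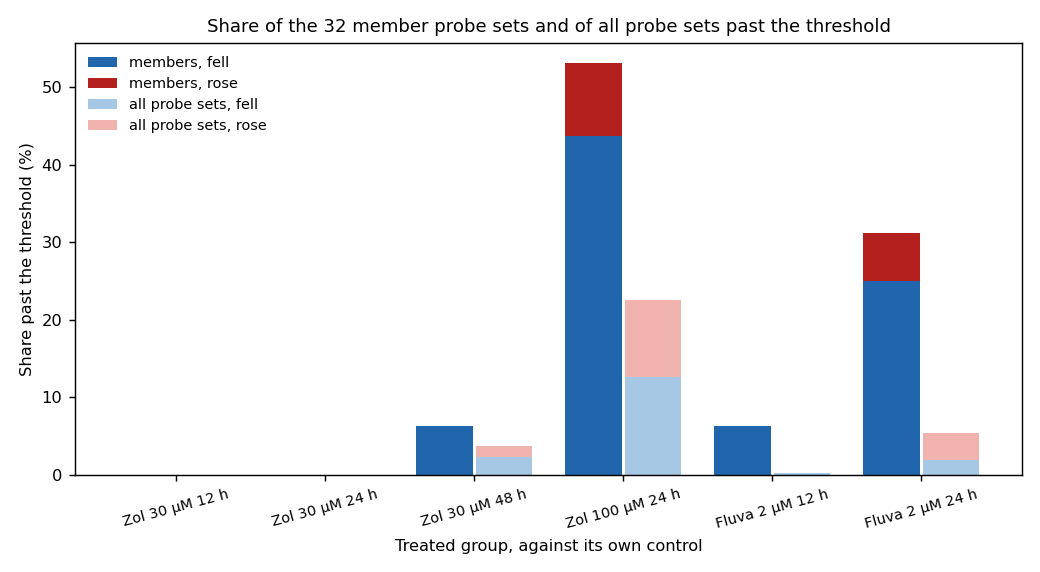
Share of probe sets that passed the test (percent, adjusted p under 0.05), split by direction, for the 32 probe sets of the actin and SRF genes and for all 33297, in each of the 6 comparisons with control. The 100 µM bars reach 53.1% and 22.7%, and the bars of fluvastatin at 24 h 31.2% and 5.3%.

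SRF, the transcription factor itself, fell with 100 µM zoledronate (probe set 8119712). Its 4 control arrays read 9.70, 9.69, 9.64 and 9.63, and the treated arrays 9.21, 9.20, 9.17 and 9.26. The groups did not overlap. The difference was −0.45 ± 0.07 (adjusted p = 2.9e-05), and it was negative in 4 of 4 pairs. With fluvastatin at 24 h SRF read 9.51, 9.66, 9.40 and 9.57 against 9.88, 9.73, 9.79 and 9.82 in controls, again without overlap, and fell by 0.27 ± 0.07 (adjusted p = 0.024). At 12 h of fluvastatin the difference was −0.26 (adjusted p = 0.11). With 30 µM zoledronate for 48 h it was −0.09, with a 95% interval from −0.24 to 0.05.

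Of 6 probe sets for the SRF cofactors MRTFA, MRTFB, MYOCD, ELK1, ELK3 and ELK4, 0 passed at 100 µM by limma's adjusted p, where 22.7% of all probe sets did. So few probe sets cannot be set apart from that share. Their mean levels ran from 4.55 to 9.91. None of their adjusted p-values lay below 0.078, the value of ELK3 (−0.17 ± 0.07). MRTFA lies on a probe set that lists 2 symbols, at −0.01, and MRTFB stood at 0.00. Of the immediate early genes, the other class of SRF targets, which the ELK cofactors serve, 2 of 7 rose and 0 fell, where 10% of all probe sets rose and 12.6% fell. JUNB rose by 0.74 ± 0.08 (adjusted p = 9.5e-07) and IER2 by 0.59 ± 0.08 (adjusted p = 1.4e-05). The other 5 did not pass, among them EGR1 at −0.16 and FOS at 0.11.

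The calponin and caldesmon group, proteins that bind along the filament and restrain myosin or stabilise the bundle, had 6 probe sets. At 100 µM 3 of them fell and 0 rose, where 12.6% of all probe sets fell and 10% rose. A count over so few probe sets is a description. CALD1, caldesmon, which inhibits the myosin ATPase on actin, read 7.63, 7.45, 7.29 and 7.51 in controls and 6.43, 6.30, 6.28 and 6.11 with 100 µM zoledronate (probe set 8136347). All 4 treated values lay far below the lowest control. It fell by 1.19 ± 0.09, or 2.29-fold (adjusted p = 3.9e-09). CNN2, a calponin of non-muscle cells, read 9.35, 9.20, 9.12 and 9.26 in controls and 8.60, 8.43, 8.49 and 8.48 after treatment (probe set 8024111), a difference of −0.73 ± 0.08 (adjusted p = 3.9e-07). CNN3, the acidic calponin, read 10.66, 10.79, 10.87 and 10.76 against 10.09, 9.98, 10.07 and 10.12 (probe set 7917885), a difference of −0.70 ± 0.11 (adjusted p = 2.9e-05). Neither calponin's groups overlapped.

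TAGLN (transgelin, also called SM22, a marker of SRF activity in smooth muscle) varied widely among controls. At 24 h in lot II its controls read 7.19, 6.60, 6.33 and 6.56 and the 100 µM arrays 6.46, 6.13, 6.45 and 6.13, with overlap (probe set 7944082). The difference of −0.38 ± 0.14 was at the threshold (adjusted p = 0.05) and did not pass. It passed without replicate 3, at −0.54 (adjusted p = 0.0075). Its homologue TAGLN2 stood at 0.28 (adjusted p = 0.083). CNN1, the smooth muscle calponin, had levels of 5.50 to 5.67 in the same controls and a difference of −0.04, with an interval from −0.26 to 0.17.

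The adhesion plaque and stress fibre group had 4 of 8 probe sets lower and 1 higher at 100 µM. Of all probe sets 12.6% fell and 10% rose, and a count over 8 is a description. NEXN, nexilin, which binds filaments at adhesions and in muscle Z-discs, fell further than any other member. Its controls read 8.93, 8.82, 8.84 and 8.81, and the treated arrays 7.10, 6.75, 6.72 and 6.53 (probe set 7902495). The difference was −2.07 ± 0.16, a 4.2-fold lower signal (adjusted p = 1.5e-08). LIMA1 (EPLIN), which crosslinks filaments and slows their loss of subunits, read 9.52, 9.33, 9.30 and 9.37 against 8.64, 8.49, 8.57 and 8.45 (probe set 7963187). It fell by 0.84 ± 0.07 (adjusted p = 4.5e-08).

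FHL2, a LIM-domain protein that is both a target of SRF and a partner of it, read 8.54, 8.50, 8.53 and 8.55 in controls and 7.95, 7.95, 8.0 and 8.01 with 100 µM zoledronate (probe set 8054377). The replicates differed by under 0.1 within each group, and FHL2 fell by 0.55 ± 0.08 (adjusted p = 1.9e-05). PDLIM5, which ties kinases to α-actinin, fell by 0.25 ± 0.06 (adjusted p = 0.0046). It no longer passed without replicate 3. PDLIM7 (Enigma), of the same PDZ and LIM family, went the other way: controls of 8.79, 8.70, 8.78 and 8.75 stood against 9.34, 9.36, 9.36 and 9.49 (probe set 8116070), a rise of 0.63 ± 0.09 (adjusted p = 1e-05). The core adhesion proteins did not pass. VCL (vinculin) stood at 0.18 ± 0.08 (adjusted p = 0.13), TLN1 (talin) at 0.15 ± 0.06 (adjusted p = 0.072), both with all treated arrays above all controls, and ZYX (zyxin) at −0.05, with an interval from −0.20 to 0.10.

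**Figure D3:**
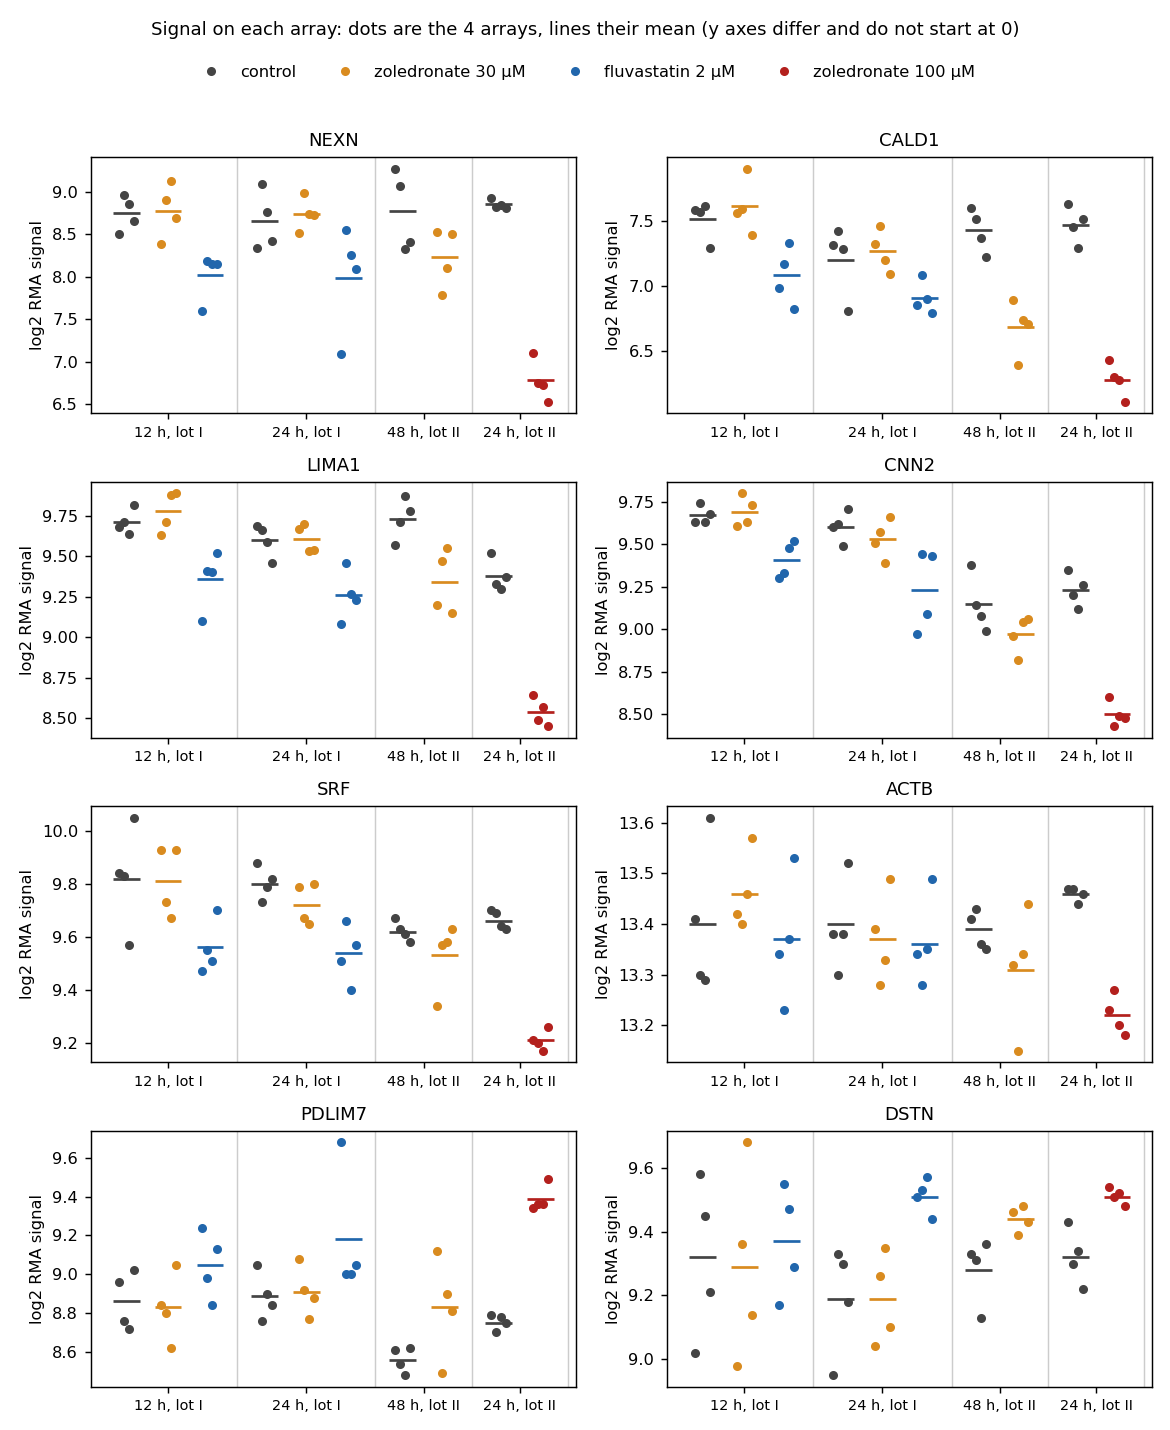
Log2 level of 8 members on every array, by time and lot, with points for the 4 replicates coloured by agent and dose and a line for their mean. Each panel has its own axis, which does not start at 0. In the 100 µM group the points of NEXN lie between 6.53 and 7.10, below all of its controls at 8.81 to 8.93, while those of PDLIM7 lie between 9.34 and 9.49, above its controls.

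Both cytoplasmic actins fell slightly. ACTB, β-actin, read 13.47, 13.47, 13.44 and 13.46 in lot II controls at 24 h and 13.23, 13.27, 13.20 and 13.18 with 100 µM zoledronate (probe set 8137979). The groups did not overlap, and the difference was −0.24 ± 0.05, or 1.18-fold (adjusted p = 0.0016). ACTG1, γ-actin, read 13.48, 13.28, 13.24 and 13.38 against 13.20, 13.12, 13.03 and 13.05 (probe set 8019183), a difference of −0.25 ± 0.05 (adjusted p = 0.0012). With arrays normalized to a common distribution anew, both differences were −0.18 and still passed. These signals lie near the top of the array's range of 1.2 to 14.52.

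The 2 smooth muscle actins did not pass. ACTA2 (probe set 7934906) read 6.78, 6.66, 7.01 and 7.12 in controls and 6.71, 6.97, 6.97 and 6.90 at 100 µM, a difference of 0.00 with an interval from −0.18 to 0.17. ACTG2 (probe set 8042788), whose mean level of 5.66 over all arrays is below that of the median probe set, read 5.72, 5.59, 5.47 and 5.42 against 5.51, 5.33, 5.20 and 5.18. That is −0.24 ± 0.11 (adjusted p = 0.14), lower in 4 of 4 pairs. With fluvastatin at 24 h none of the 4 actins passed: ACTB stood at −0.03 (interval −0.14 to 0.08), ACTG1 at −0.03 (−0.13 to 0.08), ACTA2 at −0.06 and ACTG2 at −0.13.

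Of the crosslinkers, ACTN1 (α-actinin 1, which bundles stress fibres) read 11.89, 11.71, 11.80 and 11.74 in controls and 11.54, 11.47, 11.43 and 11.52 at 100 µM (probe set 7979824). It fell by 0.29 ± 0.05 (adjusted p = 0.00019). ACTN4 stood at −0.08 (interval −0.19 to 0.02).

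The tropomyosins, which coil along the filament and set which other proteins bind it, split by gene. TPM1 fell by 0.47 ± 0.10 at 100 µM (adjusted p = 0.0016), with pair differences between −0.51 and −0.45. TPM2 read 7.27, 7.50, 7.49 and 7.35 in controls and 7.66, 7.60, 7.77 and 7.60 after treatment (probe set 8161044), a rise of 0.26 ± 0.09 (adjusted p = 0.043) that no longer passed without any 1 of the 4 replicates, without the replicate block or with median centring. The dimmer TPM4 probe set (8026513) read 9.36, 9.32, 9.45 and 9.49 in controls and 9.66, 9.66, 9.63 and 9.91 after treatment, a rise of 0.31 ± 0.06 (adjusted p = 0.00043). The brighter TPM4 probe set (8180349), annotated to other transcripts, stood at 0.16 ± 0.07 (adjusted p = 0.096).

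Of the myosin II genes, MYL9, the regulatory light chain whose phosphorylation switches the motor on, fell by 0.44 ± 0.10 (adjusted p = 0.0022), with pair differences of −0.62, −0.69, −0.26 and −0.21. It no longer passed without replicate 1. The heavy chain MYH9 stood at −0.01 (interval −0.17 to 0.14) and MYH10 at −0.20 ± 0.12 (adjusted p = 0.30).

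Among the genes of filament turnover, CFL2, the muscle cofilin, which severs filaments, fell by 0.40 ± 0.11 (adjusted p = 0.011) and no longer passed without replicate 3 or replicate 4. CFL1, the cofilin of most cells, stood at −0.02 (interval −0.13 to 0.09), and PFN1, profilin, which loads monomers for filament growth, at 0.01 (−0.12 to 0.13). DSTN (destrin, a relative of cofilin that also disassembles filaments) stood at 0.19 ± 0.07 (adjusted p = 0.054), with the 4 treated arrays above the 4 controls.

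With the arrays normalized anew, 22 of the 32 passed at 100 µM, 14 lower and 8 higher, where the deposited values gave 14 and 3. Over all probe sets 21.7% passed then, against 22.7% with the deposited values. TPM4 (brighter probe set), TAGLN2, VCL, TLN1 and DSTN joined the genes that rose, TAGLN joined those that fell and PDLIM5 was lost. The 16 calls in common kept their direction.

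Fluvastatin for 24 h lowered 8 of the 10 genes that passed and raised 2. The calponin and caldesmon group gave 4 of the falls (CALD1, CNN2, CNN3 and TAGLN), the adhesion plaque group 3 (NEXN, LIMA1 and FHL2), and SRF was the eighth. NEXN read 8.34, 9.09, 8.76 and 8.42 in lot I controls and 7.09, 8.55, 8.25 and 8.09 with fluvastatin, with overlap between the groups. It fell by 0.66 ± 0.16 (adjusted p = 0.022), most in replicate 1. TAGLN, whose controls ranged from 6.81 to 7.85, fell in 4 of 4 pairs by 0.51 ± 0.14 (adjusted p = 0.032), although the groups overlapped.

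CNN2 read 9.60, 9.62, 9.49 and 9.71 in these controls and 8.97, 9.44, 9.09 and 9.43 with fluvastatin at 24 h, without overlap, a difference of −0.37 ± 0.08 (adjusted p = 0.0078). CNN3 read 10.78, 10.65, 10.50 and 10.44 against 9.98, 10.41, 10.10 and 10.13, also without overlap, a difference of −0.44 ± 0.11 (adjusted p = 0.018). LIMA1 read 9.69, 9.66, 9.59 and 9.46 against 9.08, 9.46, 9.27 and 9.23, which meet at 9.46, and fell by 0.34 ± 0.07 (adjusted p = 0.01). FHL2 read 8.61, 8.41, 8.35 and 8.28 against 7.97, 8.23, 8.12 and 8.10, and fell by 0.31 ± 0.08 (adjusted p = 0.026). CALD1 fell by 0.30 ± 0.09 (adjusted p = 0.046).

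Of the 2 genes that rose with fluvastatin, 1 disassembles filaments and the other is a PDZ and LIM adaptor. DSTN read 8.95, 9.33, 9.30 and 9.18 in controls and 9.51, 9.53, 9.57 and 9.44 with fluvastatin (probe set 8061114), without overlap, a rise of 0.32 ± 0.07 (adjusted p = 0.01). PDLIM7 read 9.05, 8.76, 8.90 and 8.84 against 9.68, 9.0, 9.0 and 9.05, with overlap, a rise of 0.30 ± 0.09 (adjusted p = 0.049).

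These calls rested on few arrays. In 9 of the 10 genes replicate 1 showed the largest difference of the 4 pairs, SRF being the exception. The fluvastatin array of replicate 1 deviated from its group by a root mean square of 0.341, close to the highest of the series (0.346). Without replicate 1, 0 of the 32 passed by limma's adjusted p and 186 of all probe sets. Without replicate 3, 1 passed (DSTN) and 165 of all. Without replicate 4, 4 passed and 465 of all, and without replicate 2, 6 and 2040 of all. Fitted without the replicate block, 3 passed (CNN2, CNN3 and FHL2) and 533 of all. With the spread taken from the arrays compared alone, 0 of the 32 and 0 of all 33297 probe sets passed. The signs held: without replicate 1 the differences were −0.46 for NEXN, −0.31 for CNN3, −0.28 for CNN2, −0.25 for LIMA1 and −0.23 for SRF.

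After 12 h of fluvastatin CALD1 read 6.98, 7.17, 7.33 and 6.82 against control levels of 7.58, 7.57, 7.61 and 7.29, a difference of −0.44 ± 0.09 (adjusted p = 0.033). LIMA1 read 9.10, 9.41, 9.40 and 9.52 against 9.68, 9.71, 9.64 and 9.82, without overlap, a difference of −0.35 ± 0.07 (adjusted p = 0.046). NEXN had the largest difference at this time, −0.72 ± 0.16, with no overlap (7.60 to 8.19 against 8.50 to 8.96), but missed the threshold (adjusted p = 0.073). With any 1 of the 4 replicates left out, 0 members passed and between 0 and 18 of all probe sets. No member's fluvastatin effect differed between 24 h and 12 h by limma's adjusted p, where 0% of all probe sets did. At an unadjusted limma p under 0.05, 2 of the 32 did, PDLIM5 (0.33 higher at 24 h) and DSTN (0.27 higher). By the same unadjusted p, 3343 of all 33297 probe sets did, so the members' share was not above that of all.

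With 30 µM zoledronate for 48 h, CALD1 read 6.89, 6.39, 6.74 and 6.71 against 7.60, 7.51, 7.37 and 7.22 in controls. It fell by 0.74 ± 0.09 (adjusted p = 0.00011), and passed with each replicate left out, at −0.82 to −0.62. LIMA1 read 9.20, 9.47, 9.55 and 9.15 against 9.57, 9.71, 9.87 and 9.78, just without overlap, and fell by 0.39 ± 0.07 (adjusted p = 0.0049), but did not pass without replicate 3 or replicate 4. Both missed the threshold with the spread of the compared arrays alone (adjusted p = 0.28 and 0.36), where 0 of all 33297 probe sets passed. NEXN stood at −0.54 ± 0.16 (adjusted p = 0.073), with pair differences of −0.74, −1.28, −0.23 and 0.10. The treated array of replicate 2 stood further from its group than any other array of the series (root-mean-square deviation 0.346). The fluvastatin array of replicate 1 at 24 h was close to it (0.341). Without the 48 h pair of replicate 2, 4 members passed, where 4.52% of all probe sets did: CALD1 at −0.62, LIMA1 at −0.44, TAGLN2 at 0.38 and PDLIM7 at 0.37.

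At 12 h and 24 h of 30 µM zoledronate the 32 differences lay between −0.10 and 0.15 and between −0.15 and 0.25. CALD1 read 7.56, 7.59, 7.90 and 7.39 at 12 h and 7.32, 7.46, 7.20 and 7.09 at 24 h, overlapping its controls at both times. NEXN at 24 h read 8.51, 8.99, 8.74 and 8.73, inside its controls' range of 8.34 to 9.09. TPM2 at 24 h was the 1 member with an unadjusted p under 0.05 (0.25, adjusted p = 0.86).

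Within lot I the agents were compared directly at the doses given as IC50. At 24 h, 7 members differed between 30 µM zoledronate and 2 µM fluvastatin, where 3.13% of all probe sets did. Levels were higher with zoledronate for NEXN (0.75 ± 0.16, adjusted p = 0.015), CNN3 (0.38), CALD1 (0.36), LIMA1 (0.35), FHL2 (0.32) and CNN2 (0.30), and lower for DSTN (−0.33, adjusted p = 0.014). At 12 h, CALD1 (0.53), LIMA1 (0.42) and PDLIM5 (0.31, adjusted p = 0.042) were higher with zoledronate, where 0.162% of all differed and 0.105% were higher. SRF did not pass at either time (0.26 and 0.19, adjusted p = 0.13 and 0.15). The comparison at 24 h gave 0 members without replicate 1, 3 or 4, 6 without replicate 2, and 0 without the replicate block. Of all probe sets it gave 80, 29 and 107 without replicates 1, 3 and 4, 1176 without replicate 2 and 204 without the block. That at 12 h gave 0 members with any replicate left out and 0 without the block, and of all probe sets between 0 and 9 and 5. Both gave 0 members with the spread of the compared arrays alone, where 0 of all probe sets passed at 24 h and 5 at 12 h.

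The effect of 100 µM at 24 h was set against that of 30 µM at 24 h, each relative to its own controls. These groups differ in lot as well as dose, and the lot and the dose cannot be told apart. Of the 32, 14 differed (12 lower and 2 higher at 100 µM), where 13.3% of all did. The largest differences were NEXN at −2.16 ± 0.23 (adjusted p = 5e-06), CALD1 at −1.26 ± 0.12 (adjusted p = 2e-06), LIMA1 at −0.85 ± 0.10 and CNN2 at −0.66 ± 0.11, and PDLIM7 at 0.61 ± 0.12 (adjusted p = 0.0017). ACTG1 at −0.25 and SRF at −0.37 also passed. The count fell to 7 without replicate 3 or 4, 9 without replicate 1, and 8 without the replicate block. Between 6.57% and 8.37% of all probe sets differed in these fits.

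Against 30 µM for 48 h, in the same lot, 100 µM for 24 h gave lower values of 5 members, where 4.45% of all probe sets differed, 2.62% being lower. They were NEXN (−1.53 ± 0.23, adjusted p = 0.00062), CNN2 (−0.56 ± 0.11), LIMA1 (−0.45 ± 0.10), CALD1 (−0.45 ± 0.12) and SRF (−0.36 ± 0.10, adjusted p = 0.034). Dose and time both differ here. Without replicate 3 or 4, 1 member passed, where 0.532% and 0.781% of all probe sets did. Without the 48 h pair of replicate 2, 9 members passed, where 8.26% of all did. With the arrays normalized anew 6 passed, 5 lower and 1, the dimmer TPM4 probe set, higher, where 5.07% of all passed. Between 30 µM at 48 h and at 24 h, in different lots, the effect on CALD1 alone of the 32 differed (−0.81 ± 0.12, adjusted p = 0.015), where 0.0721% of all did (0.0511% lower), and it did not pass with any replicate left out. Between 0 and 4 of all probe sets passed in those fits.

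The members' effects with 100 µM zoledronate and with fluvastatin at 24 h come from different lots and share no array. Over the 32 probe sets, which are not independent, they correlated with r = 0.88 and a rank correlation of 0.90, against r = 0.44 over all probe sets, and had the same sign in 27, or 84.4%, against 60.7% of all. All members but ACTG2 and CNN1 lie above the median probe set in level, and the comparison with all probe sets was not matched for level. The 8 members that passed in both (of 10 with fluvastatin and 17 with zoledronate) were NEXN, CALD1, LIMA1, CNN2, CNN3, FHL2 and SRF, all lower, and PDLIM7, higher. CALD1, NEXN and LIMA1 fell further with 100 µM zoledronate, by −0.90 ± 0.12 (adjusted p = 0.00039), −1.41 ± 0.23 (adjusted p = 0.0016) and −0.50 ± 0.10 (adjusted p = 0.0091) between the effects, where 3.43% of all probe sets differed and 2.62% were lower. The lots differ as well. Between 1 and 5 members passed with a replicate left out: 1 without replicate 3 or 4 and 5 without replicate 1. Of all probe sets, 0.267% and 0.396% passed without replicates 3 and 4, and 3.55% without replicate 1.

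**Figure D4:**
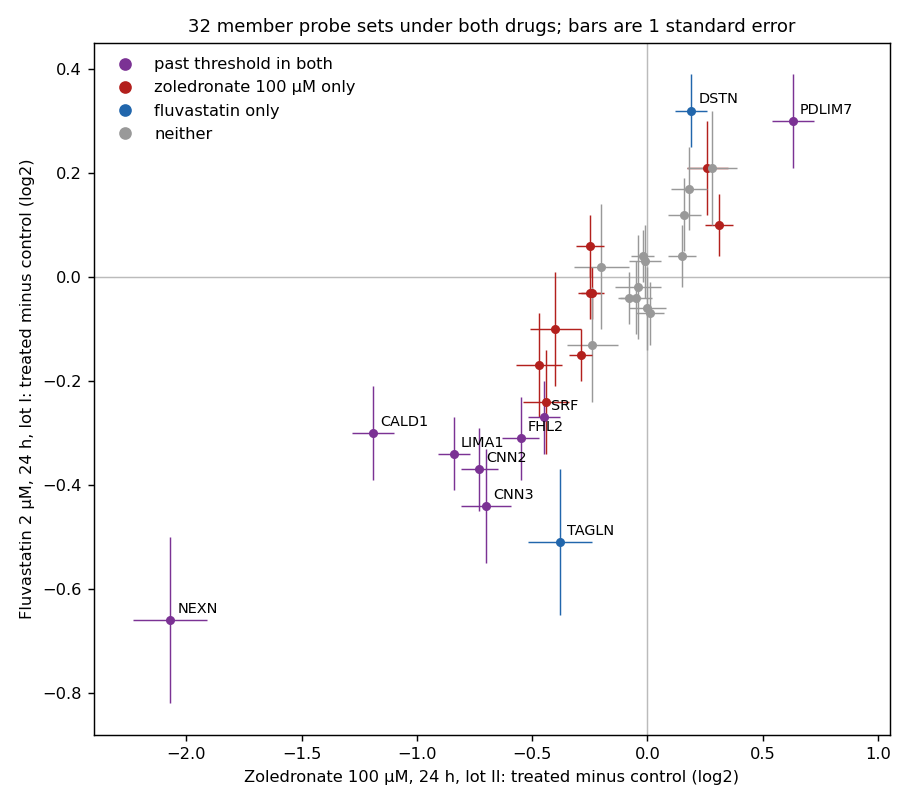
Mean difference (log2, 4 pairs each) of the 32 probe sets with 100 µM zoledronate at 24 h (horizontal) against 2 µM fluvastatin at 24 h (vertical), with bars of 1 standard error and colours for the comparisons in which the test was passed. NEXN lies lowest at −2.07 and −0.66, and PDLIM7 highest among the genes that passed in both, at 0.63 and 0.30.

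Other genes of actin assembly and adhesion, in 4 lists of 51 measured genes and 61 probe sets, were counted with each treatment. At 100 µM 17 of the 61 rose and 9 fell, where 10% of all probe sets rose and 12.6% fell. Their median difference was 0.06, beside −0.22 for the members. In the list of filament ends and monomers, 5 of 17 rose and 2 fell. GSN, gelsolin, which severs and caps filaments, rose by 1.47 ± 0.12 (adjusted p = 1.7e-08) and CAPG, a capping relative of it, by 0.65 ± 0.07 (adjusted p = 7.9e-07), while CORO1C, a coronin, fell by 0.42 ± 0.05 (adjusted p = 2.4e-06). GSN also rose with fluvastatin at 24 h (0.91 ± 0.12, adjusted p = 0.00024) and with 30 µM zoledronate at 48 h (0.63 ± 0.12, adjusted p = 0.0045).

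Formins and WASP family genes, which start new filaments, had 5 of 14 higher and 2 lower at 100 µM. The shares of all probe sets were again 10% higher and 12.6% lower. The formins FMNL2 (0.66 ± 0.08) and INF2 (0.44 ± 0.06) and the WAVE protein gene WASF2 (0.59 ± 0.09) rose. Of the Arp2/3 complex, which branches filaments, 2 of 8 rose (ARPC1A by 0.33 and ACTR3 by 0.24) and 1 fell (ARPC5L by 0.48 ± 0.07). Further adhesion genes had 5 of 22 higher and 4 lower. ENAH (Mena), which protects growing filament ends, fell by 0.71 ± 0.09, and TES rose by 0.52 ± 0.11. SVIL, supervillin, rose by 0.96 ± 0.10 on its own probe set, but 2 further probe sets that list it with a second symbol, and carry identical values on all arrays, stood at −0.70 ± 0.15 each, and both are among the 4 lower.

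With fluvastatin at 24 h the 4 lists had 7 higher and 1 lower of 61, where 3.48% of all probe sets rose and 1.82% fell. Beside GSN, CAPG (0.39), SVIL (0.55), DAAM1 (0.43), FMNL2 (0.34) and ACTR3 (0.28) rose, as did a probe set listing TMSB4X with other symbols (0.31), and WASF3 fell by 0.28. With 30 µM zoledronate at 48 h 2 of the 61 rose and 4 fell, where 1.49% of all rose and 2.2% fell. GSN and SVIL (0.38) were higher, and DIAPH3 (−0.66), ENAH (−0.40), CORO1C (−0.26) and LPP (−0.23) lower. With fluvastatin at 12 h 0 rose and 1 fell, LPP by 0.28. JUNB, of the immediate early genes, also rose with 30 µM zoledronate at 48 h, by 0.44.

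Medians of the 40 arrays lay between 6.19 and 6.33, and no column repeated another. Of the markers of this line, the 7 probe sets of VIM, CD44, MSN, KRT18 and AXL had mean levels of 10.38 to 12.25, and the 8 of the luminal markers ESR1, PGR, ERBB2, CDH1, EPCAM and GATA3 levels of 4.68 to 8.12. Markers of smooth muscle cells, another cell type rich in these proteins, had levels of 4.55 to 8.0 in 7 probe sets, of which 1 fell at 100 µM (SMTN, −0.33 ± 0.11) and 0 rose. Blood cell markers stood at 3.39 to 6.11 in 4 probe sets, of which CD14 rose by 0.42 ± 0.13 at 100 µM. The part of these markers in the results was not tested. Over all probe sets 10% rose and 12.6% fell at 100 µM. Counts over so few marker probe sets cannot be set apart from those shares. Of the 7 probe sets of the line's markers, 1 rose at 100 µM (MSN, by 0.21 ± 0.07) and 1 fell (AXL), and of the 8 of the luminal markers 1 rose (ERBB2, by 0.46 ± 0.07) and 1 fell (EPCAM, by 0.35 ± 0.08, on 1 of its 2 probe sets). AXL, a receptor kinase, fell with 100 µM zoledronate by 0.73 ± 0.08 (adjusted p = 3.6e-07), with fluvastatin at 24 h by 0.50 ± 0.08 (adjusted p = 0.00095) and with 30 µM zoledronate at 48 h by 0.31 ± 0.08 (adjusted p = 0.023).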

How the data were processed

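Per the labels' protocols, RNA was converted to amplified cDNA and biotinylated for the array. The deposited values are log2 signals that the authors made with RMA in Affymetrix Power Tools 1.10.2, and limma was their testing tool, per the submitters' processing notes. RMA corrects background, equalises the arrays' distributions and summarises each probe set, which hides a change shared by all transcripts. Whether both lots were normalized together is unknown, and the genome build was not given in the sources used here. Precision is limited by the number of arrays.

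Names came from the platform annotation (19460 with 1 symbol, 1754 with several, 12083 not listed). The fit was limma 3.58.1 in R 4.3.3 on all 40 arrays and 33297 probe sets, with 16 blocks (lot, time and replicate number), 6 treated effects, 18 residual degrees of freedom and no filter, and two-sided p-values adjusted by Benjamini-Hochberg with a threshold of 0.05. It was tested on simulated data. The design text states the pairing by day. Over all probe sets, treated and control arrays that share a number deviated from their groups' means with a correlation of 0.07 to 0.43 in lot I (15 of 16 pairs above 0.1) and of −0.15 to 0.33 in lot II (3 of 8), where the pairing rests on that text. Alternatives were other blocks, only the arrays compared, other scalings, filters on dim or several-symbol probe sets, 1 probe set per gene, an intensity trend, array weights, each replicate left out and, added after seeing the data, the fit without the 48 h pair of replicate 2.

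The members, lists and alternatives were chosen with earlier results of these data known. Values of every array are given for up to 10 members per direction by smallest p at 100 µM, for those that passed with fluvastatin at 24 h or 30 µM zoledronate at 48 h (up to 6 per direction), and for the actins and SRF. Up to 3 genes of each further list are named by smallest p at 100 µM, and those that passed with the other treatments, with MRTFA, MRTFB, EGR1, FOS, MSN, ERBB2, EPCAM and AXL, were named after their values were seen. A further list of genes is not reported here. Promoter sequences are from RefSeq.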

Additional observations from a re-analysis of the deposited data

Results flagged for a closer look

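In FHL2 with fluvastatin at 24 h, the pair of replicate 1 differed by −0.64 on the log2 scale, while the other 3 pairs lay between −0.23 and −0.18, a gap wide enough to stand apart by Dixon's criterion. It was the only 1 of 37 sets of 4 pairs that did so, and chance alone sets apart a small share of such sets.

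The effect of 30 µM zoledronate on CALD1 differed between 48 h and 24 h by −0.81 (limma, adjusted p = 0.015). CALD1 fell in 4 of 4 pairs at 48 h, in lot II, and stood at 0.07 at 24 h, in lot I. Time and lot cannot be told apart.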

How the results depend on the processing

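Counts of members that passed are given here by setting, with the reported count in brackets where it differs. The share of all probe sets that passed changed with the setting as well. Without the replicate block, the counts were 0 for fluvastatin at 12 h (from 2), 3 for fluvastatin at 24 h (from 10), 0 and 0 for zoledronate against fluvastatin within lot I at 12 h and 24 h (from 3 and 7), 8 for 100 µM against 30 µM zoledronate at 24 h (from 14), 2 against 30 µM at 48 h (from 5) and 0 for 48 h against 24 h (from 1). Without the block 1.6% of all probe sets passed for fluvastatin at 24 h (from 5.3%) and 0.0541% at 12 h (from 0.222%). The agents gave 0.015% at 12 h (from 0.162%) and 0.613% at 24 h (from 3.13%), and 48 h against 24 h 0% (from 0.0721%). For 100 µM, 6.93% passed against 30 µM at 24 h (from 13.3%) and 1.32% against 48 h (from 4.45%). The block changed no other member count by over 1.5 times. A random block gave 1 for fluvastatin at 12 h, where 0.306% of all probe sets passed. With only the arrays compared, the counts were 0 for fluvastatin at 12 h and 24 h, for 30 µM zoledronate at 48 h, for both comparisons of agents and for 48 h against 24 h, and 1 for 100 µM at 24 h against 30 µM at 48 h. Of all probe sets 0 passed in these as well, except 5 for the agents at 12 h and 1.34% for 100 µM at 24 h against 30 µM at 48 h. Normalizing anew gave 1 for fluvastatin at 12 h, where 0.234% of all passed, and moved the median at 100 µM from −0.22 to −0.14. Median centring gave 3 for 100 µM against 48 h, where 3.61% of all passed (from 4.45%). Without the dimmest 33.3% of probe sets, with 1-symbol probe sets only and with 1 probe set per gene, fluvastatin at 12 h gave 4, the agents at 12 h 5, and 100 µM zoledronate against fluvastatin 5 (from 3). An intensity trend gave 4 and 6 for the first and last of these, where 0.411% and 4.93% of all passed. Among all probe sets kept by the settings before the trend, 0.577% to 0.874% passed for fluvastatin at 12 h (from 0.222%). For the agents at 12 h it was 0.496% to 0.738% (from 0.162%). For 100 µM against fluvastatin it was 5.56% to 7.86% (from 3.43%). Array weights gave 5 for the agents at 12 h, 9 for 100 µM against 48 h and 9 for 100 µM against fluvastatin. Over all probe sets they gave 0.279% (from 0.162%), 9.26% (from 4.45%) and 10.7% (from 3.43%). Without the 48 h pair of replicate 2, 30 µM at 48 h gave 4 and 100 µM against it 9, where 4.52% and 8.26% of all passed.

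With each replicate left out, the counts ranged from 0 to 0 for fluvastatin at 12 h, 0 to 6 at 24 h, 1 to 2 for 30 µM at 48 h, 15 to 16 for 100 µM, 0 to 0 and 0 to 6 for the agents at 12 h and 24 h, 7 to 10 for 100 µM against 30 µM at 24 h, 1 to 5 against 48 h, 0 to 0 for 48 h against 24 h and 1 to 5 for 100 µM against fluvastatin. Of all probe sets, 15.9% to 18.9% passed at 100 µM in these fits (from 22.7%). With fluvastatin it was 0% to 0.0541% at 12 h (from 0.222%) and 0.496% to 6.13% at 24 h (from 5.3%). For 30 µM at 48 h it was 0.42% to 2.78%, and 0% to 0.012% for 48 h against 24 h. The agents gave 0% to 0.027% at 12 h and 0.0871% to 3.53% at 24 h. For 100 µM it was 6.57% to 10.5% against 30 µM at 24 h, 0.532% to 3.79% against 48 h and 0.267% to 3.55% against fluvastatin. The median member difference ranged from −0.24 to −0.18 at 100 µM and from −0.07 to −0.04 with fluvastatin at 24 h. No difference of a gene that passed changed sign under any of these settings. Of the 17 that passed at 100 µM, TPM1, TPM2 and PDLIM5 were lost without the block, and ACTG1, TPM2 and PDLIM5 with only the arrays compared. The dimmest members, ACTG2 and CNN1, lie below the median probe set.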
